A study of Mus musculus with 12 samples.

Results

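Chemokine ligands are the secreted, or in a few cases membrane-anchored, proteins that tell leukocytes where to go. They were taken from the gene table of this mouse study by symbol: every gene named Ccl or Cxcl with a number and at most 1 further letter, together with Xcl1, Pf4, Ppbp and Cx3cl1. The rule found 42 genes among 55413 gene rows, and it used no measured value. Of the 42, 31 had a mean of at least 1 CPM (counts scaled to the library total) in 1 or more groups of libraries, 22 reached 10 CPM, and 4 (Ccl21c, Ccl21d, Ccl26 and Ccl27b) had no count in any library. After the filter on low counts 33 of the 42 were tested.

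The libraries are bulk RNA sequencing of sorted regulatory T cells (Treg), the CD4+ Foxp3+ T cells that restrain immune responses. Tumor libraries came from TCRbd-/- mice, hosts without T cells of their own. These hosts had received thymus-derived Treg (tTreg) from spleen and lymph nodes of CD45.1 Foxp3YFP-cre donors, along with Foxp3- CD4+ and with CD8+ T cells of CD45.2 Foxp3YFP-cre donors, in a ratio of 1:10:8. Hepa1-6 cells, a mouse hepatoma line, were injected 3 days after the transfer, and Treg were sorted from the tumors on day 18. Tumor pTreg (n = 3 libraries) are the peripherally converted Treg and tumor tTreg (n = 5) the thymus-derived ones. They are called pTreg and tTreg from here on. The controls, LN Treg (n = 4), are Treg from lymph nodes of mice without a tumor. All 12 libraries carry the same genotype entry, which names both the Foxp3YFP-cre and the TCRbd-/- mice, and a treatment of none. The labels give no age, and they do not say whether libraries of a group came from separate mice, so p-values measure the spread between these libraries, which may be technical.

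Chemokines bind G protein-coupled receptors on leukocytes and direct their movement along gradients. Inflammatory chemokines are made on demand by myeloid cells, epithelium, stroma and activated lymphocytes, and several of them share a receptor, whereas homeostatic ones such as CCL19, CCL21 and CXCL13 set up lymphoid tissue. T cells themselves are known sources of CCL1, CCL3, CCL4, CCL5 and XCL1. In tumors, CXCL9 and CXCL10 are known for drawing CXCR3-bearing T cells, CCL2 for drawing monocytes, and CCL22, CCL1 and CCL8 for drawing Treg.

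Libraries held 14573864 to 17323894 counts in LN Treg, 17964262 to 18180959 in pTreg and 18107272 to 18510923 in tTreg. The summed level of 18 pan-T genes (the T cell receptor complex and its signalling partners) ran from 6576 to 6742 CPM in LN Treg, from 1375 to 1402 CPM in pTreg and from 131 to 139 CPM in tTreg. Foxp3, the lineage factor of Treg, was at 441 ± 11.1, 20.3 ± 0.583 and 8.74 ± 0.478 CPM. All 13 macrophage and monocyte markers together stood at 36.4 to 44.8, 5915 to 5955 and 5930 to 6264 CPM, and 8 hepatoma or hepatocyte markers at 7.38 to 9.53, 5339 to 5713 and 7882 to 8226 CPM. The tumor libraries labelled as Treg therefore held more macrophage and hepatoma marker counts than T cell counts, and the part of these other cells in the ligand levels was not tested. In bulk libraries fewer cells of a type and less RNA per cell cannot be told apart. For that reason the differences between the tumor groups are read both as a share of the library (TMM scaling of edgeR) and relative to the pan-T counts. The second scale moved the median over all 15705 tested genes from -0.0080 to -3.37 on the log2 scale between the tumor groups, so a value near -3.37 on it is that of a typical gene.

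Summed over all 42 ligands, the share of counts was 0.00339 ± 0.000199% in LN Treg, 0.272 ± 0.00487% in pTreg and 0.306 ± 0.00929% in tTreg. At least 1 CPM was reached by 5 ligands in LN Treg and by 29 in each tumor group. At least 10 CPM was reached by Cxcl10 alone in LN Treg, by 21 ligands in pTreg and by 20 in tTreg. Levels of different genes are comparable only per transcript length, which the deposited FPKM gives (fragments normalised for length and depth). On that scale the order in pTreg was Cxcl2 (549 ± 32.1 FPKM), Ccl7 (478 ± 6.25), Ccl3 (446 ± 11.6), Ccl4 (402 ± 7.46), Ccl24 (393 ± 11), Ccl2 (356 ± 2.89) and Ccl5 (353 ± 20.3). Ccl4 and Ccl24, and Ccl2 and Ccl5, lie within 1 SD of each other in that order. In tTreg Cxcl2 (699.7 ± 62.3 FPKM), Ccl7 (565 ± 23.7), Ccl4 (486 ± 17.8), Ccl3 (469 ± 25.6), Ccl24 (447 ± 30.5) and Ccl2 (429.8 ± 16.9) led, with neighbours from Ccl4 to Ccl2 within their spread, while Ccl5 stood at 42.1 ± 5.35. The highest ligands of LN Treg were Ccl5 (18.4 ± 1.91 FPKM) and Cxcl10 (16.7 ± 2.35), which do not differ beyond their spread, followed by Ccl25 (4.73 ± 1.10), Cxcl2 (3.64 ± 1.18) and Xcl1 (2.55 ± 1.37).

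**Figure D1:**
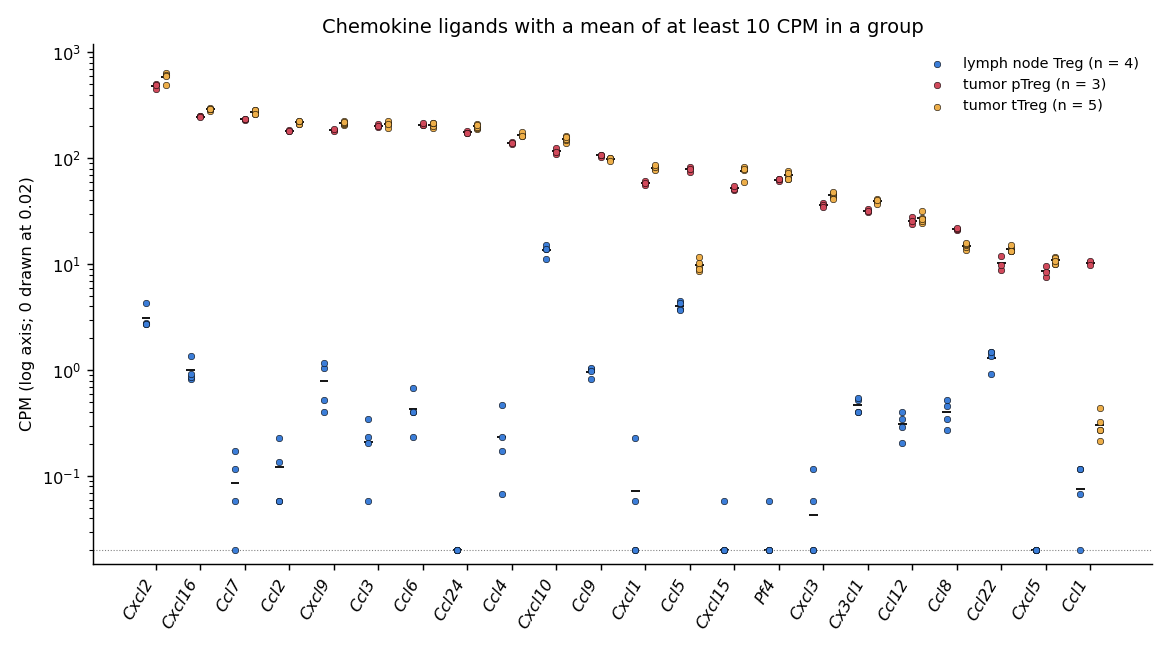
The 22 chemokine ligands with a mean of at least 10 CPM in a group, 1 point per library and a bar at each group mean, on a log axis in CPM (not corrected for length, so heights are compared within a gene). LN Treg lie below both tumor groups for each of the 22 genes, and Ccl1 and Ccl5 show the widest gaps between the tumor groups.

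Between the tumor groups, 3 ligands stood far above the rest in pTreg: Ccl1, Xcl1 and Ccl5. Of the 33 tested ligands, 5 were higher in pTreg than in tTreg (Ccl1, Xcl1, Ccl5, Ccl8 and Ccl9; 26.8% of all tested genes were called higher), 20 were lower (25.3% of all) and 8 were not called (52.1% of all genes were called in either direction; edgeR quasi-likelihood test, Benjamini-Hochberg adjusted p under 0.05). Few differences reached 2-fold: 3 were higher by at least 2-fold (6.56% of all genes) and 3 lower by at least 2-fold, Ccl11, Cxcl13 and Cxcl12 (1.41% of all). The median log2 fold change of the 33 was -0.25, beside -0.0080 over all genes. Relative to pan-T counts, 2 ligands were higher in pTreg, Ccl1 and Xcl1 (0.528% of all genes), and the other 31 were lower (97.1% of all), with a median of -3.61 beside -3.37 over all genes. In CPM the libraries of the tumor groups did not overlap for 24 ligands, 5 higher in pTreg (24.4% of all genes) and 19 lower (24.0% of all).

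**Figure D2:**
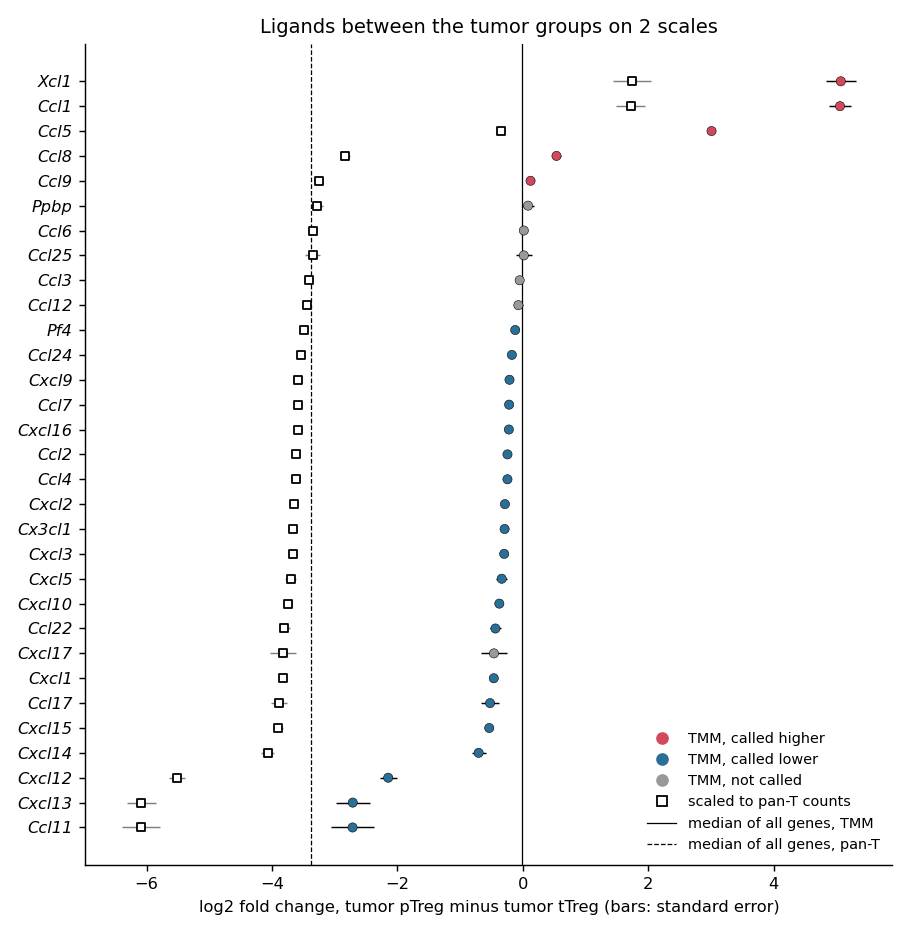
Log2 fold change of pTreg minus tTreg with its standard error for the 31 ligands with at least 1 CPM in a group, on TMM scaling (filled circles) and relative to pan-T counts (open squares), with the median of all tested genes on each scale as a vertical line. Xcl1 and Ccl1 are to the right of 0 on both scales, Ccl5, Ccl8 and Ccl9 are to the right of 0 on TMM scaling and to the left of it relative to pan-T counts, and Ccl11, Cxcl13 and Cxcl12 lie farthest left on both.

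CCR8 is a receptor of activated Treg and of type 2 helper T cells, and its ligands in the mouse are CCL1, made chiefly by activated T cells, and CCL8. Ccl1 was at 0.118, 0.0686, 0 and 0.116 CPM in the LN Treg libraries, 10.6, 10.7 and 9.85 in pTreg and 0.274, 0.328, 0.216, 0.274 and 0.442 in tTreg. All 3 pTreg libraries were high and all 9 others were below 1 CPM, with no overlap. The means were 10.4 ± 0.454 against 0.307 ± 0.0853 CPM, a 33.3-fold difference (log2 fold change 5.06, SE 0.177, edgeR adjusted p = 7.70e-20). Per 100 pan-T counts Ccl1 was at 0.768, 0.762 and 0.707 in pTreg and 0.206, 0.249, 0.159, 0.197 and 0.320 in tTreg, again without overlap, and the log2 difference on that scale was 1.72 (edgeR adjusted p = 1.76e-08). Ccl8 stood at 21.2, 21.5 and 22.2 CPM in pTreg, 13.5, 14.7, 15.1, 15.7 and 16.0 in tTreg and 0.530, 0.274, 0.462 and 0.349 in LN Treg. The tumor groups did not overlap, and the difference was 1.45-fold (log2 fold change 0.54, SE 0.0651, edgeR adjusted p = 6.22e-08), whereas relative to pan-T counts Ccl8 was lower in pTreg (-2.83). Among the macrophage markers 2 of 13 were higher and 3 lower in pTreg, with a median log2 fold change of -0.0050. The receptor gene Ccr8 was at 32.1 ± 0.785, 20.2 ± 1.13 and 3.03 ± 0.309 CPM in LN Treg, pTreg and tTreg (6.68-fold between the tumor groups on the library share, edgeR adjusted p = 2.23e-21, and -0.62 relative to pan-T counts).

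XCL1, or lymphotactin, is made by activated CD8+ T cells, NK cells and some CD4+ T cells and acts on XCR1, which marks cross-presenting dendritic cells. Xcl1 was at 0.471, 0.618, 0.924 and 0.174 CPM in LN Treg, 7.54, 8.29 and 8.96 in pTreg and 0.219, 0.164, 0.270, 0.438 and 0.110 in tTreg. The 3 pTreg libraries were all above the other 9, among which LN Treg and tTreg overlapped. pTreg exceeded tTreg 33.6-fold (log2 fold change 5.07, SE 0.239, edgeR adjusted p = 9.71e-17) and LN Treg 16.1-fold (log2 fold change 4.01, SE 0.225, edgeR adjusted p = 6.39e-16). Relative to pan-T counts the difference between the tumor groups was 1.74 (edgeR adjusted p = 1.67e-06), with 0.548, 0.591 and 0.643 per 100 pan-T counts in pTreg and 0.165, 0.125, 0.198, 0.315 and 0.0800 in tTreg. Relative to pan-T counts tTreg were above LN Treg (4.39), though below the median of all genes for that comparison (5.62). On the library share tTreg were below LN Treg (log2 fold change -1.06, SE 0.422, edgeR adjusted p = 0.0207). That call rests on few counts: without lymph node replicate 3 it became -0.67 (edgeR adjusted p = 0.172) and without tTreg replicate 5 it became -0.88 (0.0557). Xcr1 was at 3.29 ± 0.880 CPM in pTreg and 1.87 ± 0.0730 in tTreg.

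The starting regions of Ccl1 and Xcl1 are shown because these 2 genes alone among the ligands were higher in pTreg on both scales. Each run covers the 250 bases before the RefSeq start (GRCm38.p6), written 5′ to 3′ on the gene's strand, at chr11:82179813-82180062 and chr1:164935523-164935772, both on the minus strand. Capitals mark matches, on either strand, to 4 short motifs: GGAAAA (NFAT core), TGANTCA (AP-1), GGG and TTTCC with 2 bases between (NF-kB core), and GAAA and GAAA with 2 bases between (core of the interferon-stimulated response element).
Ccl1: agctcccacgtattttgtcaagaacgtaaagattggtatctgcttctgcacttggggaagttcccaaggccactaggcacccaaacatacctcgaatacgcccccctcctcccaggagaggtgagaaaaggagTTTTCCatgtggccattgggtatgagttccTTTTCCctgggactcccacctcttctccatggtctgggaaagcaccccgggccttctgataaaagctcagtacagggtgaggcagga
Xcl1: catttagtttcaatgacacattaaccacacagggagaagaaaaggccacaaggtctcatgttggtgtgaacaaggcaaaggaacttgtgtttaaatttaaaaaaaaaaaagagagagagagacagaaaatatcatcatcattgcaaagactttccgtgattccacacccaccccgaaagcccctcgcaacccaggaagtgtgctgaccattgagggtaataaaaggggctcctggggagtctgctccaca
In the Ccl1 window TTTTCC, the reverse complement of GGAAAA, occurs 117 to 112 and 87 to 82 bases before the start, and no other motif of the 4 was found. The Xcl1 window held none of the 4. RefSeq windows run from 250 bases before to 50 after the start, and only the 250 before it were searched. GGAAAA was present in 20.4% of all 32851 windows and in 9 of the 30 ligands that have a window. TGANTCA was in 6.75% and 5, the NF-kB core in 1.41% and 5, and the interferon-stimulated core in 2.98% and 3. The percentages count windows, whereas a ligand counts once if any of its windows matched (3 ligands have more than 1). TATAAA, also searched and not capitalised, was in 12.4% of all windows and in 11 of the 30. The NF-kB core contains TTTTCC, and so a GGAAAA match, where the base before its TTTCC is T. Such matches describe the letters and do not show that a factor binds. In GENCODE vM21 (GRCm38) the Ccl1 gene spans chr11:82176657-82305690 and the Xcl1 gene chr1:164931644-164935527, both protein-coding. Xcl1 overlaps the predicted gene Gm20743 on the opposite strand, and the sources used here do not say whether counting used the strand.

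CCL3, CCL4, CCL5, CCL6 and CCL9 attract monocytes, macrophages and other leukocytes, in part through CCR1. Of these 5 ligands 2 were higher in pTreg (Ccl5 and Ccl9, beside 26.8% of all genes) and 1 lower (Ccl4, beside 25.3% of all). The other 2, Ccl3 and Ccl6, were not called. All 5 were lower relative to pan-T counts, as were 97.1% of all genes. Ccl5, a product of memory and effector T cells and NK cells, was at 4.47, 3.77, 4.33 and 3.72 CPM in LN Treg, 82.2, 75.1 and 79.2 in pTreg and 8.65, 9.34, 10.3, 11.8 and 9.11 in tTreg. The 3 groups formed 3 separate levels without overlap. The tumor groups differed 8.05-fold (log2 fold change 3.01, SE 0.0621, edgeR adjusted p = 2.31e-25). Relative to pan-T counts the order of the tumor groups turned: 5.98, 5.35 and 5.68 per 100 pan-T counts in pTreg against 6.52, 7.11, 7.58, 8.46 and 6.60 in tTreg, a log2 difference of -0.36 (edgeR adjusted p = 9.98e-06). LN Treg held 0.0612 ± 0.00558 per 100 pan-T counts. On the library share Ccl5 was 20.7-fold higher in pTreg than in LN Treg and 2.57-fold higher in tTreg (edgeR adjusted p = 6.17e-28 and 7.13e-13).

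Markers of T cells and of CD8+ T cells moved with Ccl1, Xcl1 and Ccl5. All 18 pan-T genes were higher in pTreg than in tTreg, with a median log2 fold change of 3.49, a size below that of Ccl1 and Xcl1 and above that of Ccl5. The 4 CD8 T and NK markers together ran from 19.3 to 24.4 CPM in LN Treg, 32.1 to 35.0 in pTreg and 1.86 to 2.57 in tTreg. Of the 3 tested, Cd8a (23.6 against 0.667 CPM) and Cd8b1 (9.22 against 0.438) were higher in pTreg, and the NK marker Klrb1c was not called (1.14 against 1.09 CPM, edgeR adjusted p = 0.837). Ncr1, an NK marker that was not tested, had no count in pTreg. The part of CD8+ cells in the Xcl1 and Ccl5 levels was not tested.

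**Figure D3:**
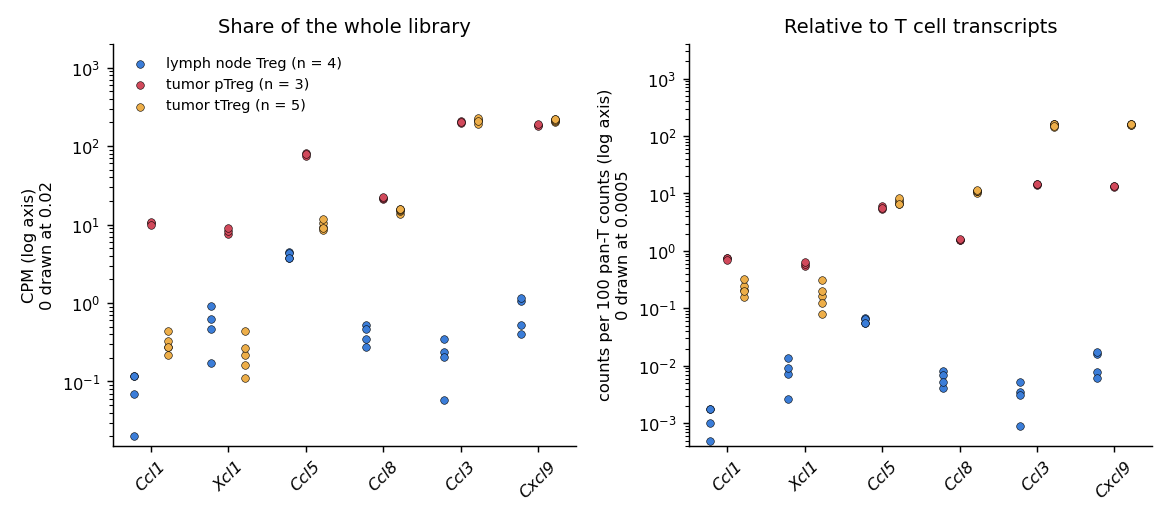
Ccl1, Xcl1, Ccl5, Ccl8, Ccl3 and Cxcl9 by library, as CPM (left) and as counts per 100 pan-T counts (right), both on log axes. Ccl1 and Xcl1 are highest in pTreg on both axes, whereas Ccl5, Ccl8, Ccl3 and Cxcl9 are higher in tTreg than in pTreg on the right axis, by less for Ccl5 than for the other 3.

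Ccl9 was at 104, 108 and 108 CPM in pTreg, 97.5, 100.05, 98.8, 101 and 95.2 in tTreg and 0.824, 1.03, 1.04 and 0.988 in LN Treg. The tumor groups did not overlap, though they differed by only 1.09-fold (log2 fold change 0.12, SE 0.0319, edgeR adjusted p = 0.00196), and DESeq2 did not call it (0.0785, adjusted p = 0.120). Ccl6 stood at 206, 205 and 214 CPM in pTreg, 195, 206, 203, 217 and 214 in tTreg and 0.235, 0.686, 0.404 and 0.407 in LN Treg, with overlapping tumor libraries (edgeR adjusted p = 0.741). Ccl3 and Ccl4 encode the macrophage inflammatory proteins MIP-1α and MIP-1β, made by macrophages and activated T cells alike. Ccl3 was at 197, 209 and 204 CPM in pTreg, 212, 216, 193, 227 and 210.4 in tTreg and 0.235, 0.206, 0.346 and 0.0581 in LN Treg, and the tumor groups overlapped (edgeR adjusted p = 0.281). For Ccl4, with 137, 143 and 140.4 CPM in pTreg, 164, 167, 166, 177 and 163 in tTreg and 0.471, 0.0686, 0.173 and 0.232 in LN Treg, the tumor groups were apart (log2 fold change -0.25, SE 0.0353, edgeR adjusted p = 1.08e-06). Ccr1, the receptor gene, was at 1.21 ± 0.0345, 174 ± 5.54 and 188 ± 1.19 CPM in LN Treg, pTreg and tTreg.

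CCR2 brings monocytes out of the bone marrow and into tissue, and its ligands here are CCL2, CCL7 and CCL12. All 3 were above LN Treg in every tumor library. Ccl2 was at 0.0588, 0.137, 0.231 and 0.0581 CPM in LN Treg, 182, 186 and 181 in pTreg and 215, 210.5, 213, 226 and 225 in tTreg, the last group being highest without overlap (log2 fold change -0.25, SE 0.0315, edgeR adjusted p = 1.69e-07). Ccl7 showed the same order, at 0.0588, 0, 0.173 and 0.116, then 231, 238 and 235, then 274, 287, 261, 287 and 262 CPM (log2 fold change -0.22, SE 0.0343, edgeR adjusted p = 4.13e-06 between the tumor groups). Ccl12, at 0.294, 0.206, 0.346 and 0.407, 23.8, 28.1 and 25.5 and 24.6, 25.7, 27.4, 31.7 and 26.8 CPM in the same order of groups, overlapped between the tumor groups (edgeR adjusted p = 0.406). Against LN Treg the fitted fold was 1531 for Ccl2 and 2567 for Ccl7 in pTreg. The receptor gene Ccr2 went the other way between the tumor groups, with 75.1 ± 5.10 CPM in pTreg and 44.3 ± 2.63 in tTreg (log2 fold change 0.77, SE 0.0503, edgeR adjusted p = 2.07e-13, and -2.60 relative to pan-T counts), beside 57.4 ± 3.95 in LN Treg. Ccl2 overlaps Gm17268 on the opposite strand.

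CXCL9, CXCL10 and CXCL11 are induced by interferon and attract T cells that carry CXCR3. Cxcl10 alone of all ligands exceeded 10 CPM in LN Treg, at 13.9, 11.3, 15.2 and 13.9 CPM, and rose to 110.3, 126 and 114 in pTreg and 139, 148, 162, 152 and 160.3 in tTreg. No library of 1 group reached those of another. pTreg were 9.17-fold and tTreg 11.9-fold above LN Treg (edgeR adjusted p = 4.53e-26 and 1.53e-28), and pTreg were below tTreg (log2 fold change -0.38, SE 0.0480, edgeR adjusted p = 1.55e-07). Cxcl9 was at 1.06, 1.17, 0.520 and 0.407 CPM in LN Treg, 184, 181 and 189 in pTreg and 204, 211, 224, 217 and 221 in tTreg, likewise with no overlap (log2 fold change -0.21, SE 0.0373, edgeR adjusted p = 2.11e-05). Cxcl11 was rare, at 0.499 ± 0.149 CPM in pTreg and 0.853 ± 0.178 in tTreg (edgeR adjusted p = 0.0527), and GENCODE lists it as a polymorphic pseudogene. Ifng, the gene of the cytokine that induces these ligands, was at 13.8 ± 1.28, 103 ± 1.69 and 2.81 ± 0.534 CPM in LN Treg, pTreg and tTreg. Cxcr3 itself was at 26.2 ± 1.62, 23.4 ± 1.09 and 4.31 ± 0.379 CPM (5.46-fold higher in pTreg than in tTreg on the library share, edgeR adjusted p = 1.21e-20, and -0.92 relative to pan-T counts).

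Upstream of Cxcl10, the 1 ligand at 10 CPM or more in all 3 groups, lie matches to 2 of the motifs named above, in capitals in the 250 bases before its start (chr5:92348890-92349139, minus strand).
Cxcl10: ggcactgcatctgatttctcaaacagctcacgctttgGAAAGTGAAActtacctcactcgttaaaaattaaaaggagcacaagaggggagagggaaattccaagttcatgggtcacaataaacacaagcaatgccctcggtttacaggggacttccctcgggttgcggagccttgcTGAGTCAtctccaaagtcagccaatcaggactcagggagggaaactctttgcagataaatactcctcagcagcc
GAAAGTGAAA, a match to the interferon-stimulated core, lies 213 to 204 bases and TGAGTCA, which fits TGANTCA, 74 to 68 bases before the start. Cxcl10 and Cxcl11 overlap Art3 on the opposite strand.

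Neutrophils respond to the CXCR2 ligands CXCL1, CXCL2, CXCL3, CXCL5, CXCL15 and PPBP, while PF4, stored like PPBP in platelet granules, binds other partners. Of these 7 genes 6 were lower in pTreg than in tTreg (25.3% of all genes) and Ppbp was not called. On log2 of FPKM + 0.1, limma did not call Cxcl1, Cxcl2, Cxcl3 and Pf4 (adjusted p = 0.210, 0.183, 0.420 and 0.780). Cxcl2 had the highest level of any ligand in both tumor groups on the FPKM scale above, at 453, 505 and 488 CPM in pTreg and 616, 639, 488, 616 and 593 in tTreg, beside 2.77, 2.74, 2.71 and 4.30 in LN Treg. tTreg replicate 3 fell within the range of pTreg, so the groups overlapped (log2 fold change -0.29, SE 0.0549, edgeR adjusted p = 7.27e-05). Cxcl1 was at 56.0, 61.0 and 58.7 CPM in pTreg and 78.8, 82.1, 77.4, 82.1 and 85.6 in tTreg, which did not overlap (log2 fold change -0.46, SE 0.0459, edgeR adjusted p = 1.34e-09), and at 0, 0, 0.231 and 0.0581 in LN Treg. Cxcl3 was at 38.2, 36.0 and 34.8 and 43.0, 44.6, 41.5, 47.5 and 47.8 CPM in the tumor groups, again apart (log2 fold change -0.30, SE 0.0550, edgeR adjusted p = 4.25e-05), and at 0, 0, 0.0577 and 0.116 in LN Treg. The receptor gene Cxcr2 was below 1 CPM on average in each group (0.826, 0.627 and 0.480 CPM).

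Cxcl1, Cxcl2 and Cxcl3 lie in 1 cluster on chromosome 5 and were lower together in pTreg, so the 100 bases before each start are shown side by side (chr5:90891145-90891244, chr5:90903799-90903898 and chr5:90786001-90786100, plus strand), with capitals for the NF-kB core on either strand.
Cxcl1: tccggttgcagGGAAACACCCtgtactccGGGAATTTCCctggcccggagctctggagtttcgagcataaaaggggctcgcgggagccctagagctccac
Cxcl2: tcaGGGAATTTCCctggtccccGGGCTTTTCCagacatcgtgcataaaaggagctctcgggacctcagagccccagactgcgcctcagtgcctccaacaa
Cxcl3: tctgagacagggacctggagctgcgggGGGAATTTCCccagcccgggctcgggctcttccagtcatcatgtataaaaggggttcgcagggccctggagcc
GGGAATTTCC occurs in all 3, 71 to 62 bases before the start in Cxcl1, 97 to 88 in Cxcl2 and 73 to 64 in Cxcl3. Cxcl1 has a second match, GGAAACACCC on the opposite strand, and Cxcl2 has GGGCTTTTCC, whose end is also a GGAAAA match on the opposite strand. Among the other ligands, the NF-kB core was found for Ccl9, called higher in pTreg, and for Ccl20, not tested. Cxcl15, of the same cluster and also lower in pTreg (log2 fold change -0.54), had no NF-kB match.

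Cxcl15, known as lungkine and best described in lung epithelium, was at 49.9, 51.0 and 55.2 CPM in pTreg and 81.1, 82.1, 59.9, 77.4 and 79.0 in tTreg, beside 0.0588, 0, 0 and 0 in LN Treg. Replicate 3 was the low library of tTreg, and no library overlapped between the tumor groups (log2 fold change -0.54, SE 0.0665, edgeR adjusted p = 8.86e-08). Hepatoma and hepatocyte markers moved in the same direction, with 5 of 5 tested genes lower in pTreg (median log2 fold change -0.54); their part in the Cxcl15 level was not tested. Cxcl5 was at 7.65, 9.57 and 8.46 CPM in pTreg and 11.8, 10.2, 9.99, 11.6 and 10.8 in tTreg, with no count in LN Treg (log2 fold change -0.34, SE 0.0917, edgeR adjusted p = 0.00324). Pf4 was at 61.5, 63.5 and 63.9 and 64.4, 68.4, 63.5, 75.3 and 73.1 CPM in the tumor groups and 0.0588, 0, 0 and 0 in LN Treg. Its tumor libraries overlapped, and the call (log2 fold change -0.12, SE 0.0489, edgeR adjusted p = 0.0375) was lost when any of 6 libraries was left out. Ppbp was at 8.28 ± 0.893 CPM in pTreg and 7.86 ± 0.292 in tTreg (edgeR adjusted p = 0.488), with no count in LN Treg. The 5 megakaryocyte and platelet markers together stayed between 0.663 and 1.27 CPM in the tumor libraries and between 2.24 and 2.56 in LN Treg. These sums came mostly from Itga2b (means of 2.37, 0.756 and 0.754 CPM in LN Treg, pTreg and tTreg). Gp1bb had no count in pTreg, and Gp1bb, Gp6 and Treml1 had none in LN Treg.

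CCR4 guides Treg and skin-homing T cells toward CCL17 and CCL22, which dendritic cells and macrophages make. Ccl22 was at 1.47, 1.37, 1.5 and 0.930 CPM in LN Treg, 11.9, 8.85 and 9.85 in pTreg and 14.1, 13.4, 13.4, 15.3 and 13.3 in tTreg, with the tumor groups apart (log2 fold change -0.44, SE 0.0882, edgeR adjusted p = 1.32e-04). Ccl17 was at 4.35 ± 0.153 CPM in pTreg and 6.29 ± 1.01 in tTreg (log2 fold change -0.52, SE 0.137, edgeR adjusted p = 0.00208), and 1 lymph node library held its only counts there. On the pan-T scale Ccl22 (-3.80) and Ccl17 (-3.89) lay below the median of all genes (-3.37). Their receptor gene Ccr4 was 5.35-fold higher in pTreg than in tTreg on the library share and lower relative to pan-T counts (-0.94). It stood at 46.4 ± 1.55, 11.3 ± 0.635 and 2.11 ± 0.108 CPM in LN Treg, pTreg and tTreg. Among 7 dendritic cell markers 2 were higher and 2 lower in pTreg than in tTreg. Their summed levels of 271 to 289 and 305 to 316 CPM came mostly from Itgax (means of 266 and 296 CPM).

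Eotaxins attract eosinophils through CCR3. Ccl24 (eotaxin-2) had no count in the 4 lymph node libraries and was at 179.6, 174 and 175 CPM in pTreg and 188, 193, 211, 199 and 208 in tTreg. These levels are at least 3879-fold and at least 4402-fold above LN Treg, taking 3 counts over that group as the floor, and pTreg were slightly lower than tTreg (log2 fold change -0.18, SE 0.0367, edgeR adjusted p = 2.71e-04). Ccl11 (eotaxin-1), also without a count in LN Treg, was at 0.332 ± 0.221 CPM in pTreg and 2.23 ± 0.448 in tTreg, 6.57-fold lower in pTreg (log2 fold change -2.72, SE 0.338, edgeR adjusted p = 2.11e-07). Ccl26 had no count in any library. Ccr3 was at 3.82 ± 0.494 CPM in LN Treg, 1.12 ± 0.697 in pTreg and 1.08 ± 0.141 in tTreg.

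The 3 largest deficits in pTreg were those of Cxcl12, Cxcl13 and the eotaxin gene Ccl11. CXCL12, the CXCR4 ligand that holds cells in bone marrow and stroma, and CXCL13, the CXCR5 ligand of B cell follicles, are classically fibroblast or stromal products. Cxcl12 was at 0.0582 ± 0.0474 CPM in LN Treg, 1.79 ± 0.188 in pTreg and 7.99 ± 0.664 in tTreg, 4.43-fold lower in pTreg (log2 fold change -2.15, SE 0.137, edgeR adjusted p = 1.03e-13). Cxcl13 was at 0.200 ± 0.0976, 0.607 ± 0.414 and 4.05 ± 0.807 CPM, 6.56-fold lower (log2 fold change -2.71, SE 0.274, edgeR adjusted p = 1.98e-09). Cxcl14, at 5.74 ± 1.10 and 9.40 ± 0.602 CPM and without a count in LN Treg, was 1.63-fold lower (log2 fold change -0.71, SE 0.110, edgeR adjusted p = 6.53e-06). Cxcl17, at 1.59 ± 0.278 and 2.20 ± 0.326 CPM, was not called (edgeR adjusted p = 0.0618), but limma-voom called it lower (adjusted p = 0.0448), as did RLE factors (edgeR adjusted p = 0.0396). Most fibroblast markers moved with these ligands and with Ccl11: 7 of 8 were lower in pTreg (median log2 fold change of all 8, -2.91). Pdgfrb was higher (log2 fold change 0.94, edgeR adjusted p = 1.34e-04). The 8 together stood at 1.71 to 3.71 CPM in LN Treg, 133 to 153 in pTreg and 673 to 796 in tTreg. Col3a1, Lum and Pdgfra had no count in LN Treg, and the part of fibroblast RNA in the Cxcl12, Cxcl13 and Ccl11 levels was not tested. Cxcr4 was at 215 ± 4.77, 107 ± 3.91 and 68.5 ± 1.89 CPM and Cxcr5 at 19.3 ± 2.05, 2.23 ± 0.450 and 0.328 ± 0.177 CPM in LN Treg, pTreg and tTreg.

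CXCL16 and CX3CL1 are made as membrane proteins that can be shed, and they bind CXCR6 and CX3CR1. Cxcl16 was at 0.824, 1.37, 0.866 and 0.930 CPM in LN Treg, 248, 249.9 and 246 in pTreg and 279.8, 291, 299, 295 and 289 in tTreg, and no library overlapped between groups (log2 fold change -0.22, SE 0.0298, edgeR adjusted p = 3.26e-07 between the tumor groups). Cx3cl1 was at 0.530, 0.549, 0.404 and 0.407, 33.1, 31.0 and 31.6 and 40.9, 39.3, 38.8, 37.1 and 40.0 CPM in the same order, also without overlap (log2 fold change -0.29, SE 0.0467, edgeR adjusted p = 6.01e-06). Their receptors differed from each other. Cxcr6 was at 17.8 ± 0.502 CPM in LN Treg, 62.0 ± 3.37 in pTreg and 1.91 ± 0.472 in tTreg (32.5-fold between the tumor groups, edgeR adjusted p = 1.31e-27), and it alone of 20 tested receptors was higher in pTreg relative to pan-T counts (1.66). Cx3cr1, a gene of monocytes and macrophages as well as effector T cells, was at 1.14 ± 0.235, 180.2 ± 1.19 and 156 ± 6.01 CPM. Cxcl16 overlaps Zmynd15 on the opposite strand.

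Ligands of CCR6, CCR7, CCR9 and CCR10 were below 1 CPM on average in all groups, except for Ccl25. Of the CCR7 ligands, which guide T cells and dendritic cells into lymph nodes, Ccl19, Ccl21a and Ccl21b never exceeded 0.118 CPM in a library and were not tested, and Ccl21c and Ccl21d had no count. The Ccl21 genes are near-identical copies, so their counts are uncertain. Of the CCR6, CCR9 and CCR10 ligands only Ccl25, the CCR9 ligand of thymus and small intestine, exceeded 1 CPM on average, at 4.71 ± 0.379, 4.98 ± 0.448 and 4.95 ± 0.785 CPM in LN Treg, pTreg and tTreg. It was not called in any of the 3 comparisons (edgeR adjusted p = 0.934, 0.184 and 0.162), and its gene overlaps Elavl1 on the opposite strand. On log2 of FPKM + 1, limma called it higher than in LN Treg in pTreg (0.37, adjusted p = 0.0127) and in tTreg (0.31, adjusted p = 0.0151). Relative to pan-T counts it was also higher in both (2.34 and 5.69), near the medians of all genes on that scale (2.27 and 5.62). Ccl27a, at 0.481 ± 0.0556, 0.682 ± 0.0856 and 0.940 ± 0.168 CPM, was called in 1 of the 3 comparisons, tTreg against LN Treg (log2 fold change 1.04, SE 0.272, edgeR adjusted p = 8.20e-04), and it overlaps Il11ra1. Ccl20 and Ccl28 stayed below 1 CPM in every library and were not tested. Ccl20 had 1 to 4 counts a library in LN Treg and 0 or 1 in the tumor libraries. Libraries with 1 count differ in CPM only through their totals, so no difference between groups is read from Ccl20.

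Set against LN Treg, nearly all tested ligands were higher in the tumor libraries. In pTreg 31 of 33 were called higher (47.6% of all tested genes) and 0 lower (39.8% of all), with Ccl25 and Ccl27a not called; all 31 differed by at least 2-fold (30.0% of all). In tTreg 31 were higher (48.1% of all), Xcl1 was lower (42.3% of all) and Ccl25 was not called; all 31 exceeded 2-fold (31.0% of all). The median log2 fold change of the 33 was 7.36 in pTreg, or 6.98 with genes lacking lymph node counts set to their lower bound, beside 0.12 over all genes. For tTreg it was 8.21, or 7.44 at the bound, beside 0.10. Both comparisons share the lymph node libraries. In pTreg each of the 33 fitted differences was above 0, so 0 ligands were lower at an unadjusted p under 0.05 either, and DESeq2 called 0 lower. In either direction 87.5% of all genes were called for pTreg and 90.3% for tTreg. Relative to pan-T counts all 33 ligands were higher in both tumor groups, beside 91.3% and 96.8% of all genes (4.18% and 0.974% were lower). In CPM 31 of the 33 tested ligands did not overlap between pTreg and LN Treg, all of them higher (43.6% of all genes, with 42.3% lower), and 31 likewise between tTreg and LN Treg (43.2%, with 42.0% lower).

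LN Treg held 4 ligands without any count that became measurable in the tumor libraries at 5 CPM or more: Ccl24, Cxcl5, Ppbp and Cxcl14. Taking 3 counts over the lymph node group as the floor, Cxcl5 was at least 189-fold higher in pTreg and at least 239.5-fold higher in tTreg. Ppbp was at least 182-fold and at least 173-fold higher, and Cxcl14 at least 126-fold and at least 207-fold. For Pf4, with 1 lymph node count, the ratio was 4163 in pTreg (95% interval 747 to 164492). The smallest called differences in pTreg were those of Cxcl13 (log2 fold change 1.70, edgeR adjusted p = 0.00416), Cxcl11 (3.00), Ccl22 (3.05), Cxcl10 (3.20), Xcl1 (4.01) and Ccl5 (4.37). In tTreg they were Ccl27a (1.04), Ccl5 (1.36) and Ccl1 (2.01), and the 2 last are the genes with the widest gap to pTreg beside Xcl1. The Cxcl13 call was lost without pTreg replicate 1 (1.06, edgeR adjusted p = 0.0984).

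The receptors that bind these ligands were counted in the same way. Of 24 receptor genes 20 were tested; 13 were higher in pTreg than in tTreg (26.8% of all genes), 3 lower (25.3% of all; Ccr1, Ackr3 and Ccrl2) and 4 not called, with a median log2 fold change of 0.59. Relative to pan-T counts 1 was higher and 18 lower (97.1% of all genes were lower). Against LN Treg 9 were higher and 9 lower in pTreg (47.6% and 39.8% of all genes), and 7 higher and 12 lower in tTreg (48.1% and 42.3%). These counts became 14 higher and 4 lower in pTreg (91.3% and 4.18% of all genes) and 18 higher and 1 lower in tTreg (96.8% and 0.974%) relative to pan-T counts. Ccr7 and Ccr6 were lower in both tumor groups than in LN Treg in CPM: Ccr7 was at 253 ± 2.95 CPM in LN Treg, 13.6 ± 0.889 in pTreg and 9.44 ± 0.854 in tTreg, and Ccr6 at 28.5 ± 2.01, 0.996 ± 0.0494 and 0.240 ± 0.147 CPM. Ccr7 turned higher in tTreg than in LN Treg on the pan-T scale (0.88) and stayed lower in pTreg (-1.96), while Ccr6 stayed lower in both. The median of all genes on that scale was 5.62 for tTreg and 2.27 for pTreg, so Ccr7 lay below it in both. Ackr3, a scavenger of CXCL12, had no count in LN Treg and was at 19 ± 2.07 CPM in pTreg and 29.4 ± 0.889 in tTreg (log2 fold change -0.62, SE 0.0645, edgeR adjusted p = 9.25e-09). Ccrl2, an atypical receptor of myeloid cells, was at 11.2 ± 0.702, 158 ± 3.53 and 172 ± 4.05 CPM, and Ccr9 at 10.7 ± 1.48, 1.97 ± 0.399 and 0.985 ± 0.256 CPM.

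By position, 12 ligands lie on chromosome 11 and 13 on chromosome 5 (GENCODE vM21, GRCm38, 41 of 42 genes found). On chromosome 11 the ligands that were higher and lower in pTreg were neighbours. From chr11:82035571-82037453 the order is Ccl2, Ccl7, Ccl11, Ccl12, Ccl8 and Ccl1. A second stretch holds Ccl5, Ccl9, Ccl6, Ccl3 and Ccl4, up to chr11:83662584-83664683. From the start of Ccl1 to the start of Ccl5 it is 1349 kb. Of these 11 ligands 4 were called higher in pTreg on the library share (26.8% of all genes). They were Ccl1 and Ccl8, the 2 last genes of the first stretch, and Ccl5 and Ccl9, the 2 first of the second. Ccl11 in the first stretch was lower by 2.72 on the log2 scale. Relative to pan-T counts Ccl1 alone of the 11 was higher (0.528% of all genes, with 97.1% lower). On chromosome 5 Cxcl5, Ppbp, Pf4, Cxcl3, Cxcl15, Cxcl1 and Cxcl2 lie in 1 stretch. Cxcl9, Cxcl10 and Cxcl11 follow, with 1417 kb from the start of Cxcl2 to the start of Cxcl9. Of these 10 CXC ligands 8 were lower in pTreg (25.3% of all genes), and Ppbp and Cxcl11 were not called.

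**Figure D4:**
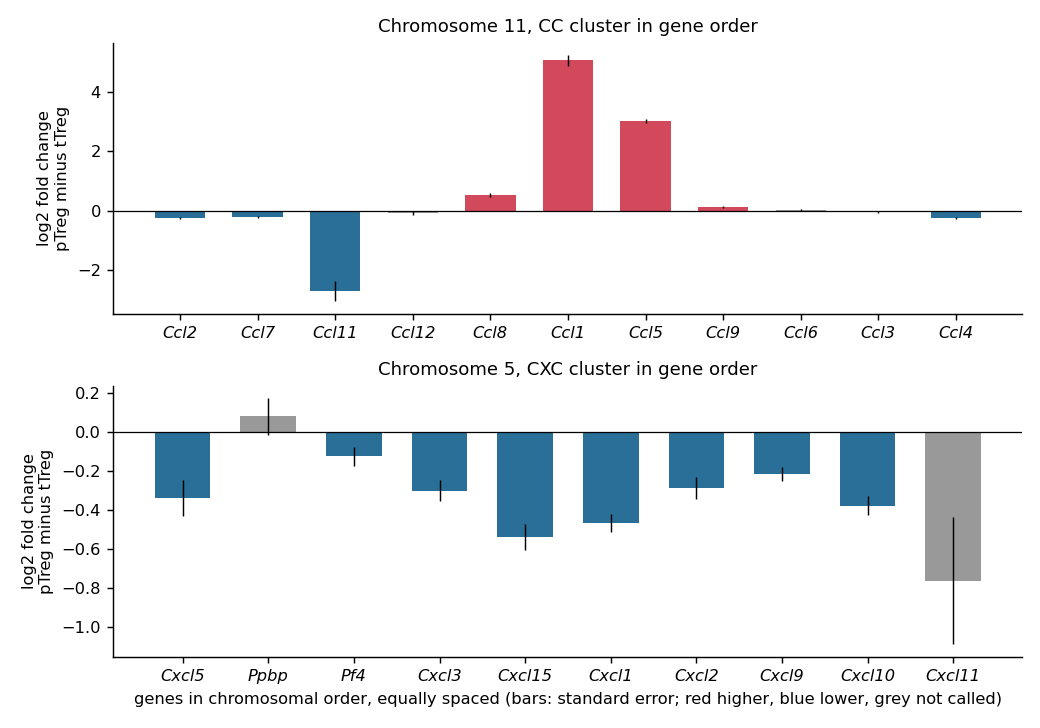
Log2 fold change of pTreg minus tTreg on TMM scaling, with its standard error, for 11 CC ligands of chromosome 11 (top) and 10 CXC ligands of chromosome 5 (bottom) in chromosomal order, equally spaced and with different vertical axes. Ccl1 and Ccl5 rise above the other genes of the upper panel (relative to pan-T counts Ccl5, Ccl8 and Ccl9 turn negative), and the called genes of the lower panel lie between -0.54 and -0.12.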

How the data were processed

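Per the labels, total RNA was sequenced on a BGISEQ-500 instrument; STAR 2.7.11a, RSEM 1.3.3, DESeq2 and GRCm38/mm10 are named per the submitters' processing notes. The deposited expected counts, whole numbers in the table, and the deposited FPKM values of the authors cover 12 libraries (0 columns were left unused). Not given in the sources used here is the annotation used for counting. CPM were computed on library totals. Tests used edgeR 4.0.16 (R 4.3.3): quasi-likelihood F test, TMM, filterByExpr, 1 fit over 12 libraries, Benjamini-Hochberg adjustment over 15705 genes per comparison and a call at 0.05; counts were rounded, which changed nothing. Genes with 10 CPM or more in a group are given by library, those between 1 and 10 by mean ± SD (9 genes), and 11 below 1 CPM by counts or ranges, except Xcl1 (by library) and Cxcl11 and Ccl27a (mean ± SD). The ligands, the receptor and marker lists and the pan-T scale (18 genes) were chosen with earlier results of these data known. Replicate pairs differed beyond sampling noise (1.62 to 3.74 chi-square per degree of freedom), so none was merged. The test was checked on simulated data. Intervals and floors (3 counts over a group, 95% intervals) cover counting error only. Promoter windows are from RefSeq (30 of 42 ligands matched); gene positions are from GENCODE vM21. The alternatives were RLE factors, library totals, pan-T counts, no filter, DESeq2 1.42.0, limma 3.58.1 (voom, and trend on log2 of FPKM + 1 or + 0.1), fits of the compared groups, a replicate block, and leaving out each library. Same-numbered libraries did not deviate together (r from -0.0529 to 0.0582 over 11053 genes).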

Additional observations from a re-analysis of the deposited data

Results flagged for a closer look

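Of 56 groups of 4 or 5 libraries examined, 6 had 1 library far from the others by Dixon's criterion, and chance alone flags about 1 group in 20. In tTreg, replicate 3 was low for Cxcl15, at 59.9 CPM against 77.4 to 82.1 in the other 4, and replicate 4 was high for Ccl4, at 176.7 CPM against 163.5 to 166.7. In LN Treg, replicate 4 was high for Cxcl2, at 4.30 CPM against 2.71 to 2.77 in the other 3. The remaining 3 cases were low counts in 1 library of LN Treg where the other 3 had none, which always meets the criterion, so that the chance rate does not apply to them: Ccl17 at 0.115 CPM in replicate 3, and Cxcl15 and Pf4 at 0.0588 CPM each in replicate 1.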

How the results depend on the processing

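The 5 ligands called higher and 20 called lower in pTreg than in tTreg became 2 and 31 relative to pan-T counts, and log2 of FPKM left 17 (+ 1) and 10 (+ 0.1) lower. With + 0.1 the calls of Ccl2, Ccl4, Ccl7, Ccl17, Cxcl1, Cxcl2, Cxcl3, Cxcl9, Cxcl16, Cx3cl1 and Pf4 were lost at differences of -0.55 to -0.15, and Cxcl17 was gained. With each library left out in turn the counts stayed at 5 higher and ran from 19 to 21 lower. Against LN Treg the leave-one-out counts were 30 to 31 higher and 0 lower for pTreg, and 31 higher and 0 to 1 lower for tTreg. The 1 ligand lower in tTreg than in LN Treg, Xcl1, became 0 lower relative to pan-T counts, with limma-voom, with the compared groups only and with the replicate block, 2 with DESeq2 and with log2 of FPKM + 1 or + 0.1, and 3 with no filter. Turned directions between the tumor groups relative to pan-T counts were Ccl5 (-0.36), Ccl8 (-2.83), Ccl9 (-3.25), Ppbp (-3.28), Ccl6 (-3.35) and Ccl25 (-3.35). For tTreg against LN Treg it was Xcl1 (4.39, beside a median of 5.62 over all genes). Uncalled values near 0 also turned: Ccl25 to -0.029 with RLE factors and with DESeq2 (-0.0294 and -0.0287) and to between -0.0495 and -0.0305 without some single libraries (leave-one-out maximum 0.0899), Ccl6 to -0.029 and -0.0284 and to -0.00926 and -0.00785 without a library (maximum 0.0352), and Ccl12 to 0.0058 with the replicate block. That block, whose numbers do not pair the libraries, gave 5 higher and 19 lower between the tumor groups (Pf4 was lost, at -0.04), 28 higher and 0 lower of 30 tested for pTreg, and 30 higher and 0 lower of 31 tested for tTreg. RLE factors moved the split over all genes between the tumor groups from 4204 higher and 3980 lower to 3572 and 4872, and 5 ligands were called higher and 23 lower, with Ccl3 and Cxcl17 among those gained. Cxcl17 was also called by limma-voom, in each fit of log2 of FPKM, with the compared groups only and without tTreg replicate 2. Where no value shows it, the cause was not tested. The pan-T counts (2405 to 2540 in each tTreg library) limit that scale.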
